A study of Mus musculus with 8 samples.

Results

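The stress and hyperproliferation keratins of the mouse epidermis, Krt6a, Krt6b, Krt16 and Krt17, were examined in newborn skin epidermis with and without Eed. The 4 genes were selected on earlier values from these same arrays, so their differences between genotypes are given as a description, with no test. Their probes were found by matching the accession of each probe to RefSeq gene symbols, which gave 5 probes, 1 each for Krt6a, Krt16 and Krt17 and 2 for Krt6b. All 4 genes were among the 23135 genes and other targets that passed the filter on dim probes. The filter asked for sample signal well above background on 3 or more arrays of either genotype.

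Total RNA came from the epidermis of C57BL/6 mice at P0, the day of birth. In 4 EED cKO samples (K14-Cre; EED flox/flox) the Cre recombinase driven by the K14 promoter deletes Eed, which encodes a core subunit of the Polycomb repressive complex PRC2, in the epithelium of the skin, whereas cells of other origin keep the gene. The 4 control samples are labeled only as control, and their alleles are not given for these arrays. In its RT-qPCR of EED cKO epidermis, the study used siblings without Cre, called WT, for comparison. Each sample was hybridized against Universal Mouse Reference RNA, a pool of RNA that was common to the 8 arrays, with the sample in Cy3 for replicates 1 and 3 and in Cy5 for replicates 2 and 4 of both genotypes.

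Keratins form the intermediate filaments of epithelial cells as obligate pairs of a type I and a type II protein. Krt6a and Krt6b are type II keratins and near-identical copies of each other, and their partners Krt16 and Krt17 are type I keratins. In healthy skin they are largely restricted to the hair follicle, the nail and thickened epidermis such as that of the footpad, and they are induced in the epidermis between the follicles upon wounding and in hyperproliferative disease. Krt17 is also made in the embryonic skin and in developing hair follicles.

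Values are log2 ratios of sample over reference, in which 1 unit is a 2-fold difference. Eed itself gave a log2 ratio of -1.80 ± 0.17 (SD, n = 4) in EED cKO against -0.35 ± 0.13 (SD, n = 4) in control, with no overlap and a log2 difference of -1.46 (limma adjusted p = 2.12e-05). Of 12 markers of epidermal keratinocytes, 11 were tested. At a limma adjusted p of 0.05, 0 of them passed, and 0 did at an unadjusted p of 0.05, by limma or the methods' t-test. They included Krt5 and Krt14 of the basal layer and Krt1 and Krt10 of the layers above it. Between 50.5% and 64.5% of the probes of an array had sample signal well above background, with 0 saturated spots. The 8 arrays lay on 1 slide with the genotypes in different rows, so that row and genotype cannot be told apart. Control replicates 2 and 3 had high Y-linked RNA with low Xist, unlike the other 6 arrays. Over all targets, 2727 rose and 2299 fell in EED cKO at an adjusted p of 0.05, which is 11.8% and 9.94% of those tested. With at least a 2-fold change as well, 255 rose and 23 fell, or 1.1% and 0.0994%. The count of 5026 changed targets went to 2722 without control replicate 2, to 2947 without EED cKO replicate 4 and to 3342 without EED cKO replicate 3. With median centring in place of loess, 1015 rose and 1540 fell.

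The type II keratins of the group, Krt6a and Krt6b, were higher in EED cKO epidermis in the ratio to the reference. For Krt6a, the log2 ratio was 2.85, 3.58, 2.86 and 3.22 in EED cKO replicates 1 to 4 and 0.11, 0.37, 0.45 and 0.65 in control replicates 1 to 4. The groups did not overlap, and the lowest EED cKO array lay far above the highest control array. With means of 3.13 ± 0.35 in EED cKO and 0.39 ± 0.22 in control (SD, n = 4 each), the log2 difference was 2.73 (standard error 0.12), or 6.65-fold, and in 12 of all the targets tested the difference was larger. In control epidermis the Krt6a probe was close to background, well above it on 3 of the 4 arrays, with median spot signals of 42, 38, 67.5 and 47 over backgrounds of 22.5 to 26. In EED cKO epidermis the same spot gave 522.5, 1655, 455 and 526. These arrays measured the RNA of the whole epidermis, in which more cells that make a keratin and more of its RNA per cell cannot be told apart.

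Krt6b, the second keratin 6 gene expressed in skin, was measured by probes that disagreed on the size of the difference. Its representative probe, the one with the highest mean signal (A_66_P101935, called the first probe), gave log2 ratios of 5.61, 5.89, 5.12 and 5.36 in EED cKO replicates 1 to 4 and of 2.19, 2.15, 1.95 and 2.14 in control replicates 1 to 4. The control arrays lay close together, and every EED cKO array was above all of them. With means of 5.49 ± 0.33 and 2.11 ± 0.11 (SD, n = 4 each), the log2 difference was 3.39 (standard error 0.14), or 10.5-fold, with 4 targets above it. The mean signal that chose the first probe was taken over all 8 arrays, EED cKO included. On control replicates 1 to 4 its sample signal was 208, 318.5, 217 and 254. That of the second probe was higher there, at 469.5, 448.5, 350.5 and 784, so the choice rests on the EED cKO signal. The second probe (A_51_P126275) gave 3.68, 4.16, 3.68 and 3.77 in EED cKO and 3.20, 2.95, 2.71 and 3.50 in control. Here too the groups did not overlap, but the highest control array came near the lowest EED cKO array, and the log2 difference was 0.73 (standard error 0.15), or 1.66-fold. Because Krt6a and Krt6b are near-identical copies and the sequences of their probes were not used here, how far each probe reads the RNA of the other gene is uncertain. What separates the readings of the Krt6b probes was not tested.

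The type I keratins behaved differently in the ratio to the reference. Krt16, a partner of keratin 6 in stressed epidermis, had log2 ratios of 4.32, 5.01, 4.47 and 5.12 in EED cKO replicates 1 to 4 and of 4.13, 4.22, 3.90 and 4.67 in control replicates 1 to 4. Control replicate 4, with the sample in Cy5, lay above EED cKO replicates 1 and 3, with the sample in Cy3, so the groups overlapped. Within each dye the EED cKO arrays lay above the control arrays. The EED cKO array was also higher in each of the 4 pairs of the same replicate number. With means of 4.73 ± 0.40 and 4.23 ± 0.32 (SD, n = 4 each), the log2 difference was 0.50 (standard error 0.11), or 1.41-fold.

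Krt17, which also marks the developing hair follicle, had log2 ratios of 4.10, 4.65, 4.33 and 4.94 in EED cKO replicates 1 to 4 and of 4.23, 4.63, 4.17 and 4.67 in control replicates 1 to 4. The groups overlapped over nearly their whole range, with the lowest value on an EED cKO array. With means of 4.51 ± 0.37 and 4.43 ± 0.26 (SD, n = 4 each), the log2 difference was 0.08 (standard error 0.09), or 1.06-fold, and within the pairs of the same replicate number it was -0.12, 0.01, 0.16 and 0.27. Of the 4 genes, then, Krt6a and Krt6b did not overlap between genotypes in these loess-normalized ratios and were higher in EED cKO. Krt16 and Krt17 overlapped over all arrays, Krt16 only between arrays of different dye and Krt17 within each dye as well. Over all targets tested, 9.67% did not overlap and were higher in EED cKO, a share printed for orientation only, since the genes were chosen on this contrast.

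**Figure D1:**
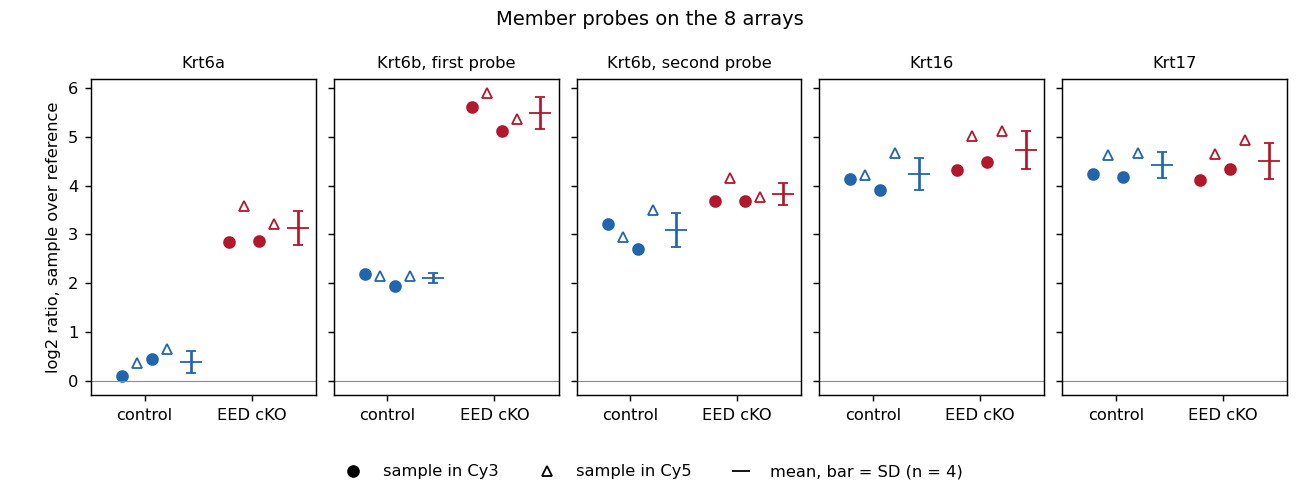
Log2 ratio of sample over reference (vertical axis) for the 5 probes of the 4 keratins on the 4 control (blue) and 4 EED cKO (red) arrays; each symbol is 1 array, its shape gives the dye of the sample, and bars are the mean and SD. The EED cKO arrays lie between 2.85 and 3.58 for Krt6a, against 0.11 to 0.65 in control, whereas for Krt17 the genotypes overlap.

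The order of the 4 genes was the same in both dye orientations. Among arrays with the sample in Cy3 the log2 difference of Krt6a was 2.58, and among those with the sample in Cy5 it was 2.89. For the first Krt6b probe the corresponding values were 3.30 and 3.48. Krt16 gave 0.38 and 0.62, and Krt17 gave 0.02 and 0.14. The level of the ratio did move with the dye for the type I keratins, with the Cy5 arrays above the Cy3 arrays of the same genotype in every case for both genes.

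The ratio did not show everything that the spots did, because the channel with the common reference also differed between genotypes at these probes. The sample channel of the Krt16 probe, on a log2 scale after loess and Aquantile normalization, was 15.27, 15.39, 14.99 and 15.17 in EED cKO replicates 1 to 4 and 13.43, 13.04, 13.04 and 13.71 in control replicates 1 to 4. The groups were well separated, with a log2 difference of 1.90 (standard error 0.19), or 3.72-fold. The unnormalized spot signals were separated as well, at 27799, 48157, 21596 and 30158.5 in EED cKO against 6409, 9939, 6078.5 and 14387 in control.

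The reference channel of the same Krt16 spot, which held the same RNA on each array, was 10.95, 10.38, 10.52 and 10.05 on the EED cKO arrays and 9.31, 8.82, 9.14 and 9.04 on the control arrays. It was therefore higher on every EED cKO array, by a log2 difference of 1.40 (standard error 0.15), and the ratio kept only what remained after this was taken off. For Krt17 the sample channel gave 15.41, 15.47, 15.59 and 15.19 in EED cKO and 14.76, 14.65, 14.65 and 14.98 in control. These groups did not overlap either, and the log2 difference was 0.66 (standard error 0.12), or 1.58-fold. The reference channel of Krt17 differed by 0.58 (standard error 0.17), with an overlap between the groups.

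Krt6a and Krt6b showed the same feature to a lesser extent relative to their size. In the sample channel alone Krt6a differed by 3.70 (standard error 0.31), or 13.03-fold, and the first Krt6b probe by 4.04 (standard error 0.33), or 16.5-fold. Their reference channels differed by 0.97 and 0.65, with no overlap between the groups. The second Krt6b probe differed by 0.90 in the sample channel and by 0.17 in the reference channel, where the groups overlapped. In the sample channel alone, then, the EED cKO arrays were above all control arrays for each of the 5 probes, Krt16 and Krt17 included. The share of all targets separated in this way was not counted for the sample channel, so how common it is remains unknown. On the control arrays, the reference channel of the Krt6a spot was well above background on 1 of 4 arrays.

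**Figure D2:**
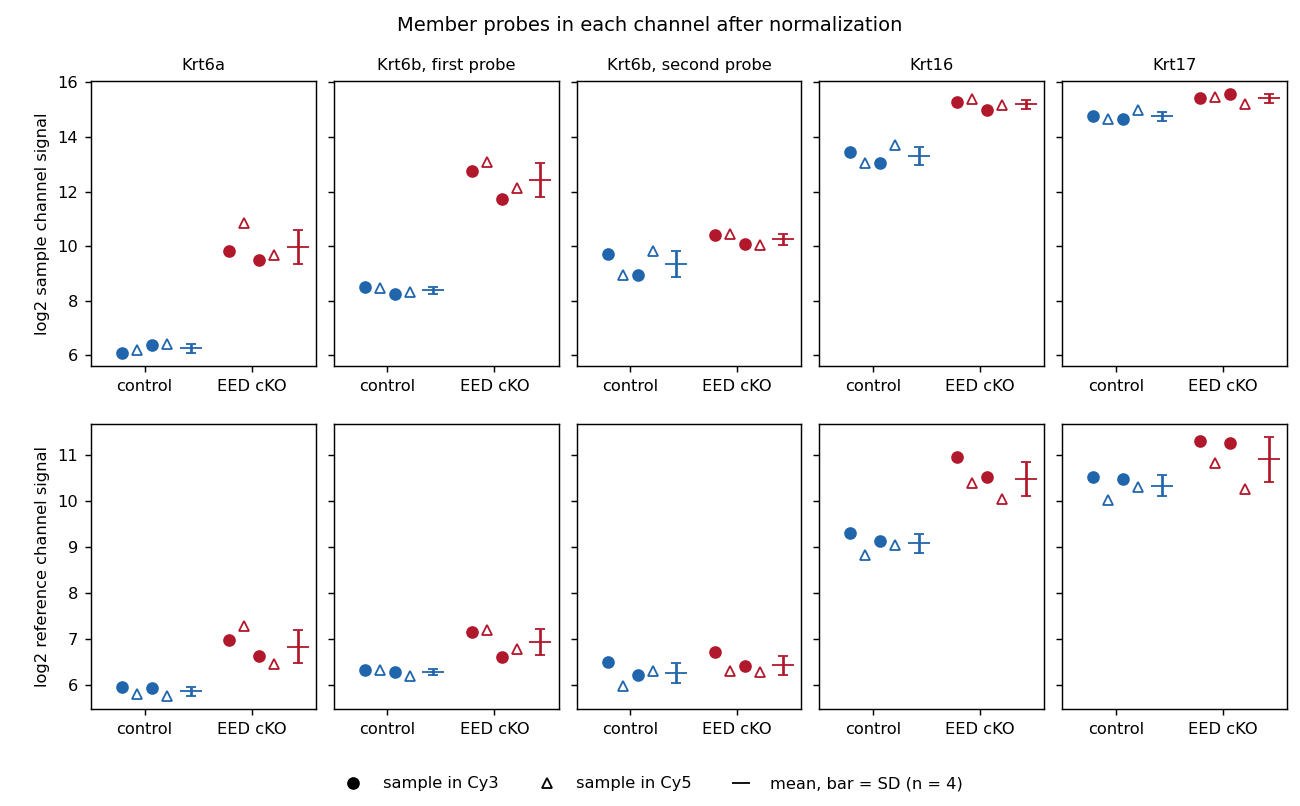
Log2 signal of the sample channel (upper row) and of the reference channel (lower row) after normalization for the 5 probes; symbols are single arrays, blue for control and red for EED cKO, and bars are the mean and SD. The sample channel separates the genotypes at every probe, a feature not counted over all targets. The mean of the reference channel is also higher on the EED cKO arrays, by 1.40 for Krt16. For Krt17 and the second Krt6b probe the genotypes overlap in the reference channel.

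A reference channel difference of this size was uncommon. Of all targets tested, 61, or 0.264%, had a reference signal higher by at least 0.5 on the log2 scale on the EED cKO arrays, and 29 one lower by as much. All 4 keratins were among the 61, at rank 7 for Krt16, rank 20 for Krt6a, rank 43 for Krt6b and rank 52 for Krt17. In 58 of the 61 the sample channel was higher in EED cKO by at least 0.5 as well. The 61 held 7 keratin genes and 18 late cornified envelope (Lce) genes, and the largest reference difference was that of Defb14, which encodes a beta-defensin. Why the reference channel moved with the sample channel at these spots was not tested. Krt16 was thus 1.41-fold higher in the ratio and 3.72-fold higher in the sample channel, and Krt17 1.06-fold and 1.58-fold.

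**Figure D3:**
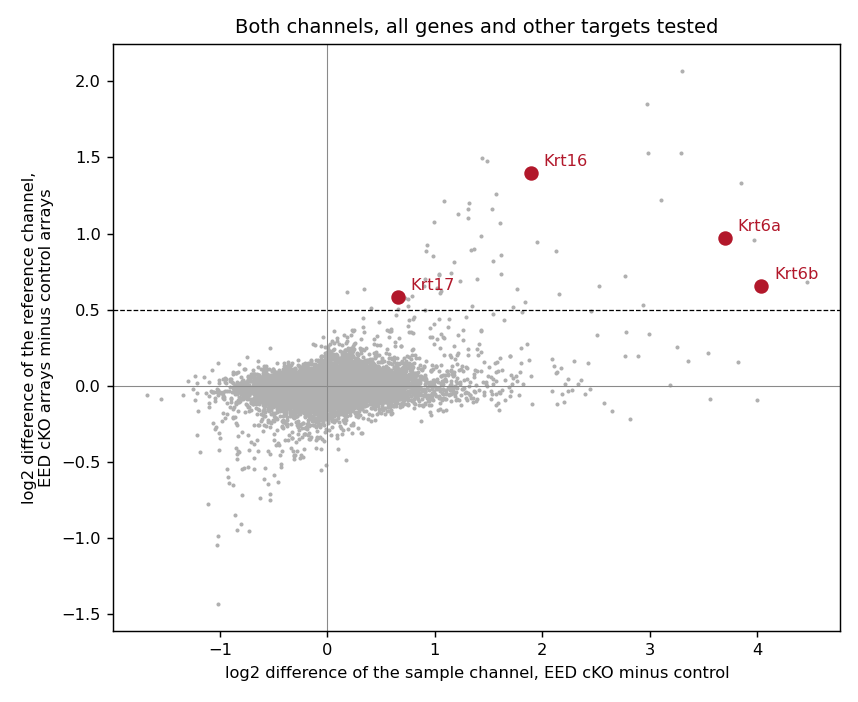
Difference between genotypes in the sample channel (horizontal axis) and in the reference channel (vertical axis), both on the log2 scale, for the 23135 targets tested (grey) and the 4 keratins (red); the dashed line is a reference difference of 0.5. All 4 keratins lie above the dashed line, as do 61 targets in all.

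The processed log ratios of the scanner software, which subtract the background without an offset, gave smaller differences for the keratin 6 genes. The log2 difference of Krt6a was 1.12 (2.17-fold) there and that of the first Krt6b probe 2.81 (7.03-fold). Krt16 at 0.38 and Krt17 at 0.05 stayed near the values above. For Krt6a these log ratios were 3.77, 4.09, 3.73 and 4.37 in EED cKO replicates 1 to 4 and 1.42, 3.52, 2.35 and 4.18 in control replicates 1 to 4, on control spots whose reference signal was close to background. Control replicate 4 lay above EED cKO replicates 1, 2 and 3, so that the Krt6a groups overlapped on this scale. The second Krt6b probe differed by 0.44 (1.36-fold) on it. Its groups overlapped as well, with control replicate 4 at 4.90 above EED cKO replicates 1 and 3 at 4.82 and 4.78. These arrays differ in dye, and within each dye the groups of this probe did not overlap. The mean of Krt6a and of both Krt6b probes was higher in EED cKO on each scale. The size of these differences depended on the scale, as did the separation of the groups over all arrays for Krt6a and the second Krt6b probe.

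Among the 8 arrays, with the mean of each dye orientation removed, Krt6a and Krt6b followed each other closely (Pearson r = 0.991 over 8 arrays, genotype included). Krt16 correlated with Krt6a at r = 0.869 and with Krt17 at r = 0.577, and Krt17 with Krt6a at r = 0.342. These coefficients describe 8 arrays of 2 genotypes and hold the difference between the genotypes.

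The genes whose pattern over the 8 arrays was most like that of each keratin were sought among 14941 other tested genes with a symbol. For Krt6a these were Krt7 (r = 0.996), a keratin of simple epithelia, Nmu (r = 0.996), which encodes the neuropeptide neuromedin U, and Tmem45b (r = 0.996). All 3 rose in EED cKO, which their choice required, because the patterns hold the difference between the genotypes. Their log2 differences were 3.00 for Krt7, 3.18 for Nmu and 2.47 for Tmem45b. For Krt6b the nearest genes, chosen in the same way, were the homeobox gene Hoxd9 (r = 0.998), Cdkn2a (r = 0.997) and the selenoprotein gene Selenov (r = 0.996). The Cdkn2a locus encodes the cell cycle inhibitor p16. Hoxd9 rose by a log2 difference of 2.03, with 1 of 4 control arrays well above background. Cdkn2a rose by 3.67, while its other probe gave 1.14, and Selenov rose by 0.46. For Krt16 the nearest were Radil (r = 0.992), Uqcc2 (r = 0.989) and Hacd4 (r = 0.989), with log2 differences of 0.21, 0.51 and 0.33, of which that of Radil did not pass the test (limma adjusted p = 0.0717). For Krt17 they were Serpina3h (r = 0.977), the cornified envelope gene Lce1b (r = 0.973) and Fcf1 (r = 0.973). None of these 3 passed the test, and the log2 difference of Lce1b was 0.13 in the ratio and 1.32 in the sample channel alone, with a reference channel higher by 1.20.

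The neighbours of the 4 genes in their keratin clusters did not share the differences of Krt6a and Krt6b. In the type II cluster, Krt5, the keratin of basal cells, differed by 0.06 (limma adjusted p = 0.622) and Krt71, a keratin of the inner root sheath of the hair, by -0.75 with a standard error of 0.56 (limma adjusted p = 0.374). In the type I cluster, Krt14, the basal partner of Krt5, differed by 0.11 (limma adjusted p = 0.358), Krt9 by -0.04 and Krt42 by 0.07. On the other side of the keratin 6 genes, Krt75 and Krt90 were on the array but did not pass the filter.

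Beyond the 4 genes, 39 further keratin genes were tested, of which 16 rose and 0 fell in EED cKO, and the other 23 did not pass. At an unadjusted p of 0.05 limma had 1 lower and the methods' t-test 0. Their median log2 difference was 0.18, against 0.02 over all targets, where 11.8% rose. Of 21 further type I keratins 8 rose, and of 18 further type II keratins 8 rose. The largest differences were those of Krt7 (3.00, limma adjusted p = 1.58e-06) and Krt12 (2.52, limma adjusted p = 0.000155), a keratin known from the cornea. The other probe of Krt12 gave 2.72. The reference channel of the representative Krt12 probe was higher by 1.34, and with the scanner log ratio Krt12 fell short of the threshold at 0.46. Krt27 of the inner root sheath followed with 1.33 (limma adjusted p = 0.0438), a call that held for 1 of the 8 arrays that could be left out, and then Krt84, a hair keratin, with 1.22 (limma adjusted p = 0.00178). Of the risers, 6 passed the 2-fold limit. In the sample channel alone 14 of the further keratins rose and 2 fell, where 2099 rose and 2075 fell of all 23135 targets.

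Among the keratins of ordinary epidermis, those of the basal layer and the main pair above it did not pass the test, while others did. Krt1 differed by 0.11 (limma adjusted p = 0.319) and Krt10 by 0.14 (limma adjusted p = 0.276), both of them markers of the differentiating layers. Krt2, a keratin of the upper layers, rose by 1.00 (limma adjusted p = 0.00102) and Krt77 by 0.47 (limma adjusted p = 0.0319), both named after their values were seen. In the sample channel alone Krt5, Krt14, Krt1 and Krt10 all had the opposite sign, with -0.09, -0.23, -0.03 and -0.18, of which that of Krt14 passed the test (limma adjusted p = 0.0342). Of the 11 epidermal markers, 1 rose and 4 fell in that channel, where 2099 rose and 2075 fell of all 23135 targets. Krt6b and Krt6a had ranks 1 and 3 among the 43 keratins, Krt16 rank 14 and Krt17 rank 29. These ranks hold for the loess-normalized ratio and the first Krt6b probe, and would be lower for the second Krt6b probe (0.73) and higher for Krt16 by its sample channel value (1.90).

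**Figure D4:**
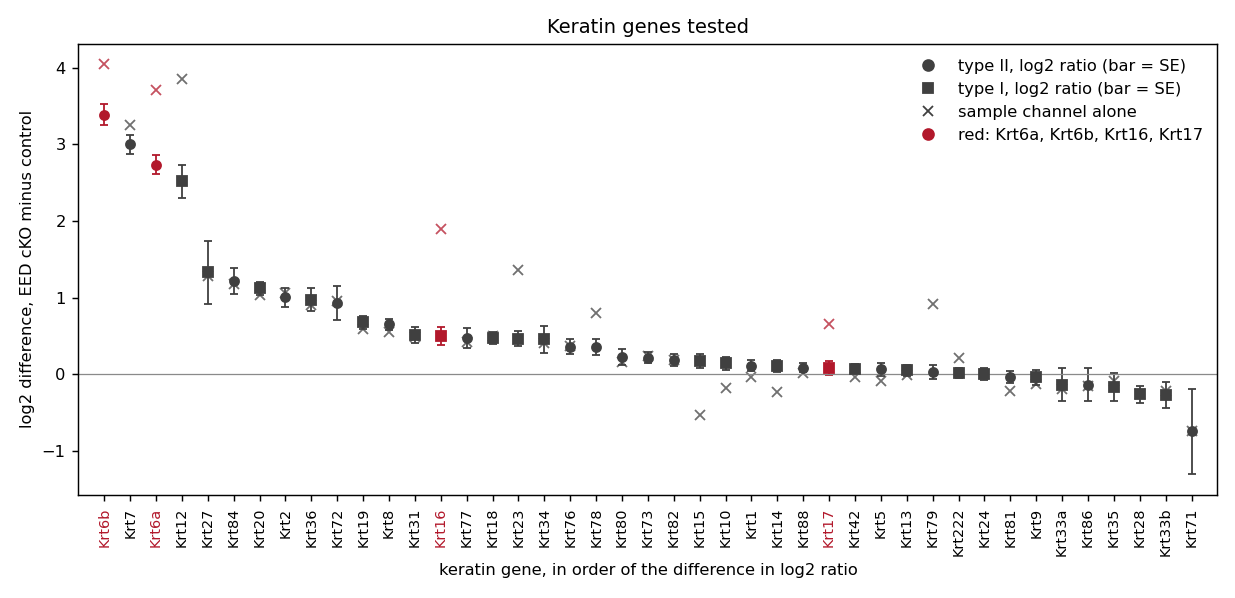
Log2 difference between EED cKO and control (vertical axis) for the 43 keratin genes tested, ranked from the largest to the smallest; circles are type II and squares type I keratins with the standard error, crosses the sample channel alone, and red marks the 4 stress keratins. Krt6b, Krt7, Krt6a and Krt12 stand above 2, Krt16 is at 0.50 and Krt17 at 0.08, while the cross of Krt16 is at 1.90.

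Genes that keratinocytes switch on together with these keratins when skin is wounded or inflamed were followed through a list of 65 genes (alarmins, Sprr and Lce3 envelope proteins, interleukin-1 family cytokines, proteases). This list, like the other lists, was written with earlier results of these data known, so its counts are a description. Of the 55 tested, 36 rose, 1 fell and 18 did not pass, with a median log2 difference of 0.55. Over all targets, 11.8% rose and 9.94% fell. The largest were Lce3f with 3.19 (limma adjusted p = 2.48e-06), whose control signal cleared background on 2 of 4 arrays, and Lce3d with 2.05 (limma adjusted p = 0.000660), both encoding late cornified envelope proteins linked to barrier repair. Il1f6, an interleukin-1 family cytokine of keratinocytes, rose by 1.88 and Lce3e by 1.76. The reference channels of Il1f6 and Lce3e were higher by 1.22 and 1.53. With the scanner log ratio the Il1f6 difference turned to -0.30 and that of Lce3e dropped to 0.19, neither of them past the threshold. The gene that fell was Icam1, an adhesion molecule for leukocytes, with -0.37 (limma adjusted p = 0.0184). At least a 2-fold change was seen in 15 genes of the list, all higher.

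Regulators that are known to act on these keratin genes, AP-1 factors, the EGF receptor pathway and STAT3, moved in both directions. Of 47 tested, 18 rose, 10 fell and 19 did not pass, with a median of 0.09, where over all targets 11.8% rose and 9.94% fell. With median centring the division was 7 and 7. The largest rises were those of the EGF receptor ligands Btc (2.13, limma adjusted p = 0.00423), Ereg (1.38, limma adjusted p = 0.00911) and Hbegf (1.26, limma adjusted p = 0.000232), and of the cytokine receptor gene Il20ra (1.44, limma adjusted p = 6.32e-06), whose control signal cleared background on 2 of 4 arrays. Grouped after the values were seen, 6 of the 7 EGF receptor ligands on the list rose, with Epgn at 1.20, Areg at 1.13 and Tgfa at 0.31, while Egf was at 0.13 (limma adjusted p = 0.272). Egfr itself differed by -0.13 (limma adjusted p = 0.525). Hbegf is also on the list of activation genes.

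The log2 ratio of Btc was 3.22, 3.85, 3.94 and 3.66 in EED cKO replicates 1 to 4 and 0.64, 2.05, 2.44 and 0.99 in control replicates 1 to 4. The control arrays spread widely but stayed below every EED cKO array. The largest falls of the list were in Fosl2, an AP-1 subunit (-0.96, limma adjusted p = 0.00101, other probe -0.30), Il6ra (-0.77), Klf4 (-0.70) and Gli2 (-0.70). The AP-1 subunit Fosl1 rose by 0.38 (limma adjusted p = 0.0267), a call kept for 2 of the 8 arrays that could be left out, whereas Junb differed by 0.24 and did not pass (limma adjusted p = 0.175). Stat3 fell by 0.40 on the log2 scale (limma adjusted p = 0.0405), kept for 3 of these 8, and its other probe gave -0.13.

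The NRF2 pathway, the oxidative stress response whose master regulator Nfe2l2 is known to drive Krt6, Krt16 and Krt17, had 7 genes that rose and 7 that fell among 35 tested, with a median of 0.00. Of all targets, 11.8% rose and 9.94% fell. The risers included Slpi, a protease inhibitor (1.05, limma adjusted p = 0.00196), and the antioxidant enzyme genes Srxn1 (0.90, limma adjusted p = 0.00208) and Txnrd1 (0.80, limma adjusted p = 0.00132), and Ephx1 rose by 0.62. Prdx6 (-0.70, limma adjusted p = 0.000761), Abcc1 (-0.49), Gsr (-0.47) and Tkt (-0.46) fell. The call of Abcc1 (limma adjusted p = 0.0433) passed in 7 of 14 alternative fits and for 3 of the 8 arrays that could be left out. Nfe2l2 differed by -0.05 (limma adjusted p = 0.817) and its inhibitor Keap1 by 0.00 (limma adjusted p = 0.991). Without control replicate 2, 9 genes of the list passed instead of 14. Slpi and Sprr2d are also on the list of activation genes, and Sprr2d did not pass in the ratio (0.44, limma adjusted p = 0.0701).

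Although the 4 keratins carry the name of hyperproliferation, the cell cycle genes did not rise. Among 47 tested genes of DNA replication and mitosis 0 rose and 12 fell, with a median of -0.20, and the other 35 did not pass, against 11.8% that rose and 9.94% that fell of all targets. At an unadjusted p of 0.05 limma had 0 higher and 21 lower, and the methods' t-test 1 higher and 16 lower. The largest falls were in the replicative helicase subunits Mcm6 (-0.74, limma adjusted p = 0.00359) and Mcm4 (-0.66, limma adjusted p = 0.0122), the DNA methylation cofactor Uhrf1 (-0.74, limma adjusted p = 0.0136) and the proliferation marker Mki67 (-0.65, limma adjusted p = 0.00852), whose other probe gave -0.64. No gene of the list changed by 2-fold. Without control replicate 3 the number that fell was 19.

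Hair follicle genes were followed because the follicle is a normal site of Krt6a, Krt16 and Krt17. Of 42 tested, 11 rose, 6 fell and 25 did not pass, with a median of 0.12, beside 11.8% and 9.94% of all targets, and with median centring the division was 3 and 5. Krt27, Pthlh (1.07, limma adjusted p = 0.0111), Tbx1 (0.97, limma adjusted p = 0.0437) and Krt36, a hair keratin (0.97, limma adjusted p = 0.00287), were the largest rises, and the call of Tbx1 held for 2 of the 8 arrays that could be left out. Cdh3, the P-cadherin gene (-0.90, limma adjusted p = 0.00525), Shh, the follicle ligand (-0.79, limma adjusted p = 0.00367), Lef1 (-0.76, limma adjusted p = 0.00438) and Gata3 (-0.52, limma adjusted p = 0.0207) were the largest falls. Without EED cKO replicate 4, 11 genes of the list passed instead of 17. The keratins of this list, Krt27 and Krt36 among them, are also counted with the further keratins.

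**Figure D5:**
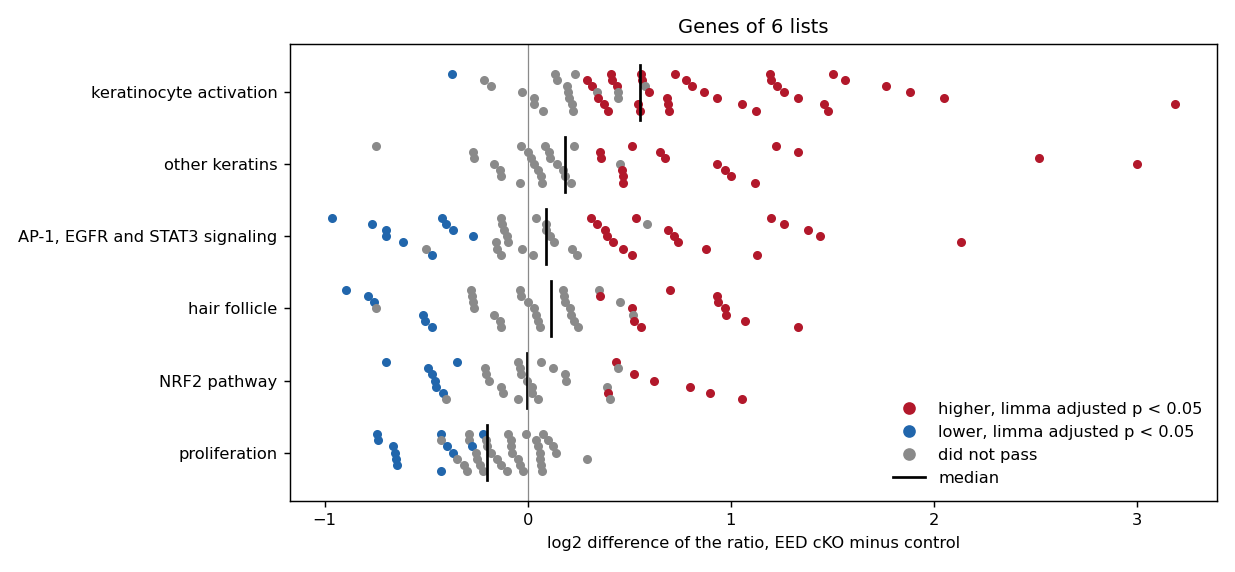
Log2 difference between EED cKO and control (horizontal axis) for each tested gene of 6 lists; red genes rose and blue genes fell at a limma adjusted p of 0.05, grey genes did not pass, and the black bar is the median. The activation list is shifted upward (median 0.55, 36 of 55 rose), and in the proliferation list 0 rose and 12 fell.

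Markers of other cells that an epidermal preparation can hold were read from the same arrays. Of all targets tested, 11.8% rose and 9.94% fell, for comparison with the counts that follow. Of 8 Merkel cell markers, 7 rose, and the mean log2 ratio of the 8 was between -0.60 and -0.42 in EED cKO and between -1.41 and -1.13 in control. They included Krt20 (1.12), Krt8 (0.65) and Krt18 (0.47), keratins of that cell type. Of the 2 endothelial markers tested both rose, Pecam1 by 0.89 and Kdr by 0.62, and 2 markers of that list were well above background on no array. The immune list had 2 of 7 rise (Cd3e and Cd74), the dermal fibroblast list 1 of 8 (Lum) and the Schwann cell and neuron list 1 of 4 (Tubb3). Of 5 melanocyte, 3 erythroid and 2 skeletal muscle markers 0 passed in limma. At an unadjusted p of 0.05, 2, 1 and 1 of them were higher in limma and 1, 0 and 0 by the methods' t-test. The erythroid genes Hbb-bt and Hba-a1 differed by 1.22 (standard error 0.55) and 1.21 (standard error 0.50), and their genotypes overlapped. The part of these cells in the values of the 4 keratins was not tested.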

How the data were processed

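RNA from 4 EED cKO and 4 control epidermis samples was hybridized to Agilent mouse arrays. The authors scanned the arrays and deposited the output of Agilent Feature Extraction 12.0.1.1, which holds spot and background intensity per channel without normalization along with its own corrected log10 ratio (Cy5 over Cy3). They also deposited log2 ratios of sample over reference, nearly the same values (r from 0.997 to 0.999 per array).

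Median spot intensity was background-corrected here (normexp, offset 50), normalized within arrays by loess, turned for dye and averaged over spots of a probe, in R 4.3.3 with limma 3.58.1. RefSeq accessions named 28026 of 29796 probes that carry one, and no coordinates are given because the array design and the annotation use different builds. For a target with several probes the probe of highest mean signal stood for it, and the group mean replaced 19 missing values. Genotypes were compared by lmFit and eBayes with dye as covariate and Benjamini-Hochberg adjustment over 23135 targets, and the fit was tested on simulated data. The labels call the replicates biological without naming separate animals, so p-values measure the spread between these samples. The number of arrays limits the precision.

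The 4 genes and all lists were chosen with earlier results of these data known. The text names the 4 genes, Eed, Krt5, Krt14, Krt1, Krt10, up to 4 largest rises and falls per pathway list, Nfe2l2, Keap1, Fosl1, Junb and Stat3, and the 3 genes most correlated with each keratin; others were chosen after their values were seen. Samples of the same replicate number are described as pairs, but the main fit did not use the pairs. Their deviations from the group means correlated across genes (0.488, 0.679, 0.326 and 0.364 for replicates 1 to 4). The replicate number also marks the dye, and its meaning is not given in the labels. Without the dye the correlation was 0.126 for replicates 1 and 3 and 0.456 for replicates 2 and 4, equal within a dye by construction.

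Alternatives were no background correction, the Feature Extraction and deposited ratios, median centring, Aquantile, other filters, the median over probes, no dye term, a replicate block, array weights, an intensity trend, a Y-linked covariate, single dyes, the sample channel alone, a 2-fold limit, the methods' t-test and each array left out. The sample channel for lists and the t-test at the methods' thresholds were added after seeing the data.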

Additional observations from a re-analysis of the deposited data

Results flagged for a closer look

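In a check for single arrays far from the other 3 of their group, 124 groups of 4 arrays were examined and 5 stood out, where about 1 in 20 groups is passed by chance. None of the 10 groups of the 4 keratins' probes was among them. The value is the gap of the farthest array to its nearest neighbour as a share of the range of the group. It was 0.939 for Slpi in control, where replicate 1 was at -3.92 and the others between -4.31 and -4.29, and 0.932 for Tmem45b in control, with replicate 1 at 0.13 below the others at 0.28 to 0.29. For Abcc1 in EED cKO it was 0.867, with replicate 2 at -0.50 above the others. Selenov in control gave 0.855 with replicate 1 highest at 0.51, and Tkt in control gave 0.8294 with replicate 4 lowest at -0.61.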

How the results depend on the processing

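The higher ratio of Krt6a and Krt6b in EED cKO kept its direction under each alternative run, while its size moved. The log2 difference of Krt6a was 1.12 with the Feature Extraction or the deposited ratios, 1.99 with median centring and 3.70 in the sample channel alone. That of the first Krt6b probe was 2.81 with the Feature Extraction or the deposited ratios, and the second probe gave 0.44 with the Feature Extraction ratios. As the median over its probes Krt6b gave 2.06, and the first probe gave 4.04 in the sample channel alone. In that channel Krt16 came to 1.90 and Krt17 to 0.66, and the other alternatives moved these by less than the spread between arrays. With an array left out, the differences ranged from 2.63 to 2.83 for Krt6a, 3.26 to 3.50 for Krt6b, 0.38 to 0.57 for Krt16 and 0.01 to 0.14 for Krt17. The Krt6a probe failed the filter of all 8 arrays well above background, so it has no value there.

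With a replicate block in place of the dye term the changed targets numbered 5983 instead of 5026. The differences of the 4 keratins (2.73, 3.39, 0.50 and 0.08) could not move, because each replicate number holds an array of each genotype. Aquantile, the fit without the dye term and the intensity trend cannot move them either, so these settings are no check on their size. The block moved no list count by over 1.5 times.

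The changed targets numbered 2555 with median centring, 2358 without the dye term, 2807 with the Y-linked covariate, 912 with the methods' t-test after Benjamini-Hochberg adjustment, 278 with a 2-fold limit and 275 with that t-test at the methods' thresholds, and 2722 to 5060 with an array left out. In the order further keratins, activation, AP-1 with EGFR and STAT3, NRF2, proliferation and hair follicle, the main counts were 16, 37, 28, 14, 12 and 17. They were 6, 13, 5, 4, 1 and 1 with the adjusted t-test, 6, 15, 6, 1, 0 and 2 both with the 2-fold limit and with the t-test at the methods' thresholds, and 9, 22, 14, 7, 8 and 8 with median centring. The Feature Extraction and the deposited ratios each gave 22 activation and 10 hair follicle genes, the fit without the dye term 7 NRF2, 6 proliferation and 10 hair follicle genes, and the sample channel alone 9 NRF2 genes. With an array left out the ranges were 12 to 16, 28 to 35, 21 to 25, 9 to 14, 8 to 19 and 11 to 17. The cause of these shifts was not tested.

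Of 46 non-member genes that the naming rule chose and that passed the test, 28 passed in every alternative fit with all arrays, 37 with any 1 array left out, and 1, Il1f6, turned sign with the Feature Extraction and deposited ratios. Signal over background limits the ratio of Krt6a, whose control spots were near background, and the 4 arrays per genotype limit all values.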
